A study of Mus musculus with 18 samples.

Results

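Liver expression was compared between mice fed 0.05% quercetin and mice fed the same diet without it, over all genes of the array, from 12 of the 18 arrays of the series. The 12 arrays were chosen by their diet label alone. They comprised 6 arrays of 6 mice on AIN93G diet containing 0.05% quercetin and 6 arrays of 6 mice on AIN93G diet without quercetin, and the other 6 arrays came from mice on 1% quercetin. All mice were male, C57BL/6J by the growth protocol and C56BL/6J as the strain label spells it, were 5 weeks old when the diets began and ate them for 20 weeks. Each diet was given to 12 mice housed 3 per cage under a light cycle with its dark period in the daytime. The cage, the 6 mice chosen among the 12 and the hour at which each mouse was killed are not stated in the labels. Each array held amplified, biotin-labelled RNA of the liver of 1 mouse on an Affymetrix mouse expression array. Levels are log2 of the deposited intensity after adding 16, with each array shifted to a common median. Changes are log2 differences, 0.05% minus control, with the standard error (SE) of limma, a linear model with a moderated spread per gene. Levels of different genes are not comparable on such arrays, because each probe set binds its target differently.

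Quercetin is a plant flavonol that rodents absorb largely as conjugates and that reaches the liver first through the portal vein. The liver burns fatty acids during fasting under the control of the nuclear receptor PPARA, makes fatty acids and cholesterol under the SREBP factors, and answers oxidants and electrophiles through NRF2. Pulses of growth hormone activate STAT5 in male liver, which induces the feedback inhibitor CISH and the factor ONECUT1, lowers the repressor BCL6 and sets most sex differences of liver transcripts. Heat shock chaperones, immediate early genes, clock genes and glucocorticoid targets respond within hours to stress, handling, feeding and time of day.

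The tissue label held: Alb, Apoa1 and Ttr, which encode albumin, apolipoprotein A-I and transthyretin, lay near the top of the scale on all 12 arrays, Alb between 13.04 and 13.69, Apoa1 between 13.58 and 14.04 and Ttr between 13.21 and 13.76. Before the shift, the array median of the 12885 tested genes was 7.0 ± 0.13 (SD, n = 6) in controls and 7.0 ± 0.19 at 0.05%. The 3′ over 5′ signal of Gapdh, a sign of RNA integrity, was -0.09 ± 0.12 in controls and -0.19 ± 0.12 at 0.05% (log2, SD), and that of Actb was 1.18 ± 0.04 and 1.09 ± 0.08. Some arrays stood apart within both groups. The mean of 28 acute phase genes, centred over the 12 arrays, was 1.05, 1.08 and 0.29 on control arrays 4, 5 and 6 and 1.14 and 0.81 on 0.05% arrays 2 and 3, and lay between -0.82 and -0.34 on the other 7. The Gapdh signal split the arrays alike, at 0.074, 0.03 and -0.066 on control arrays 4, 5 and 6. It was -0.017 and -0.101 on 0.05% arrays 2 and 3, and between -0.318 and -0.156 on the other 7. The Actb signal did not split so, at 1.108 to 1.2 on the arrays named and 0.99 to 1.231 on the other 7. The first principal component held 33.5% of the variance of the 12 arrays. Its scores lay between 14.82 and 26.71 on the arrays named and between -23.18 and -4.81 on the other 7. Control array 3 stood apart in another way, with the highest PPARA target and female-biased means and the lowest male-biased mean of its group. The parts of RNA integrity, cage, feeding state and the hour of killing in these differences were not tested.

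No gene passed the test over all genes. limma called 0 of 12885 genes at an adjusted p under 0.05 (0%), and the smallest adjusted p was 0.177. At an unadjusted p under 0.05, 656 genes (5.09%) were found, close to the share that this threshold gives when no gene differs. Of them, 342 were higher at 0.05% (2.65%) and 314 lower (2.44%). This split of 52.1% higher moved with the scaling and the filter. With other scaling, 46.7% of 394 genes were higher on values as deposited, 48.1% of 700 after quantile normalization and 34.7% of 619 after a shift to the median of all probe sets. With the filter at the 60th percentile, 70.6% of 541 genes were higher. Changes were small for most genes, with a median size of 0.09 and a median SE of 0.13, and 29 genes differed by more than 1. The 6 arrays of the 0.05% group lay above all 6 control arrays for 28 genes (0.217%) and below all of them for 22 genes (0.171%). Among the tested genes, 116 reached the level filter only with the 0.05% arrays counted, since their mean over control and 1% arrays lay below 4.69. Every value below is thus a description of genes that missed the adjusted threshold, and a p that misses the threshold does not show that levels were alike.

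**Figure D1:**
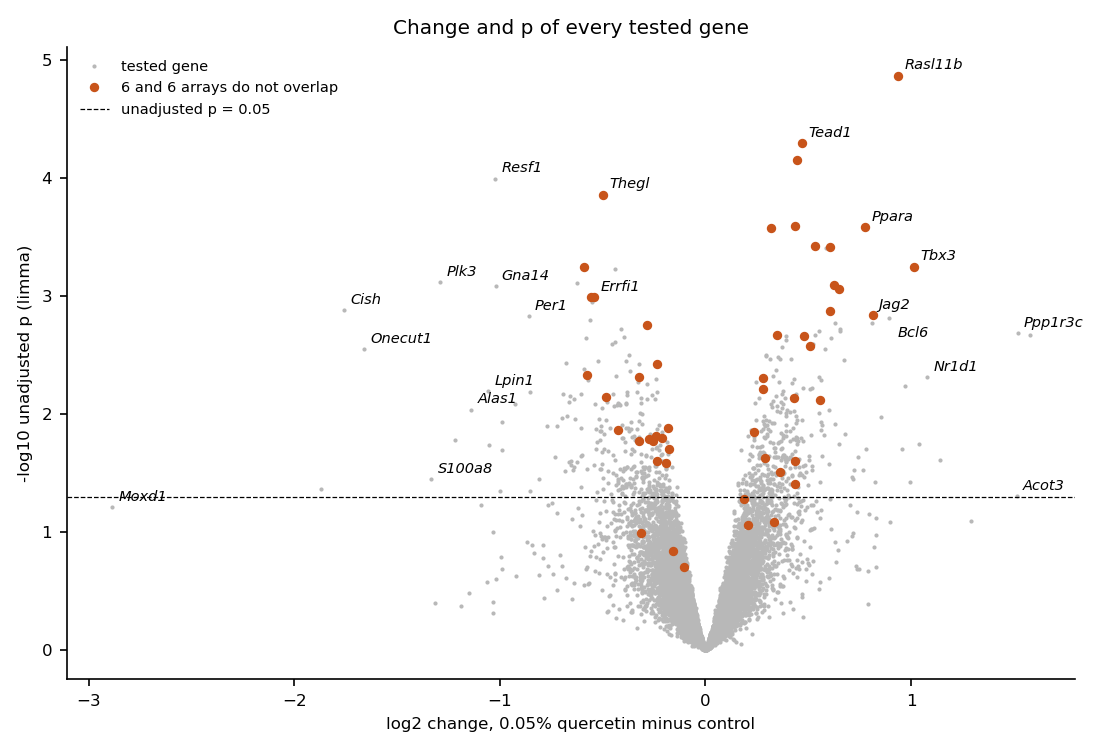
Each point is 1 of 12885 tested genes, with the log2 change (0.05% quercetin minus control) across and -log10 of limma's unadjusted p upward, and filled points mark genes whose 6 and 6 arrays do not overlap. Rasl11b has the smallest p, while Moxd1, with the widest change, has an unadjusted p of 0.0617.

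Rasl11b, which encodes a small GTPase of the RAS-like family and had the smallest unadjusted p of all tested genes, measured from 4.98 to 5.82 with a median of 5.62 in controls and from 6.21 to 6.76 with a median of 6.43 at 0.05%. All treated arrays were above all control arrays, and the change was 0.94 ± 0.16 (adjusted p = 0.177). Tead1, a DNA-binding partner of YAP in the Hippo pathway, ran from 6.42 to 6.85 with a median of 6.57 in controls and from 6.89 to 7.25 with a median of 7.04 at 0.05%, a change of 0.47 ± 0.09 (adjusted p = 0.302). Its groups did not overlap either, but a second probe set of Tead1 gave 0.09. Ppara, the receptor that induces fatty acid oxidation, ran from 9.31 to 10.24 with a median of 9.78 in controls and from 10.25 to 10.79 with a median of 10.50 at 0.05%. Its lowest treated array lay just above the highest control, which was array 3, and the change was 0.78 ± 0.17 (adjusted p = 0.431). The other Ppara probe sets gave 0.29 and 0.37.

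Tbx3, a T-box factor that Wnt signalling sustains near the central vein, measured 6.36 to 7.18 (median 6.96) in controls and 7.49 to 8.57 (median 7.76) at 0.05%. The groups did not overlap, the change was 1.01 ± 0.24 (adjusted p = 0.543), and a second probe set above the level filter gave 0.98. The mean over all Tbx3 probe sets gave 0.40. Jag2, a ligand of Notch receptors, measured 4.32 to 5.00 (median 4.54) in controls and 5.18 to 5.58 (median 5.46) at 0.05%, a change of 0.81 ± 0.22. Bcl6 measured 8.24 to 9.23 (median 8.54) in controls and 9.11 to 9.88 (median 9.46) at 0.05%, a change of 0.90 ± 0.24 (adjusted p = 0.668), and only its top control array reached into the treated range. The other leading higher genes had changes between 0.32 and 0.65. They were Bcl7a, a subunit of SWI/SNF chromatin remodelling complexes (0.44), Wdr81, a WD-repeat protein of endosomes (0.44), Magef1, a MAGE family member (0.32), and Timp3, an inhibitor of matrix metalloproteinases (0.53). Kif20a, a mitotic kinesin (0.63), Ocln, a tight junction protein (0.65), Dlc1, a RhoGAP (0.61, or 0.39 without control arrays 4 and 5), and the less studied 9930012K11Rik (0.61) and Gm5817 (0.59) completed them. Of these 15 genes, 13 had groups that did not overlap, the exceptions being Bcl6 and Gm5817, beside 28 of all 12885 tested genes (0.217%). The 15 were chosen by p in this same contrast, so such separation largely follows from the choice and adds no support. Kif20a and 9930012K11Rik reached the level filter only through the 0.05% arrays, with means of 4.53 and 4.63 over control and 1% arrays, so their differences are a condition of having been tested. Without both, groups did not overlap for 11 of 13.

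Among the leading lower genes, Resf1, which encodes a factor of retroelement silencing, was even across controls at 7.84 to 8.10 (median 8.03), while 5 treated arrays measured 6.67 to 7.0 and array 1 measured 7.90. The change was -1.02 ± 0.21 (adjusted p = 0.330). Without 0.05% array 1 it was the single gene to pass in any setting tried (-1.21, adjusted p = 0.0186), and over all the settings its adjusted p ran from 0.0186 to 0.981. Its other probe sets gave -0.62, -0.42 and -0.15. Plk3, a polo-like kinase of the stress response, measured 8.06 to 9.42 (median 8.71) in controls and 6.73 to 8.71 (median 7.32) at 0.05%, a change of -1.29 ± 0.32. Treated array 3 alone reached the control values. Gna14, a G protein alpha subunit of the Gq family, measured 6.34 to 8.06 (median 7.10) in controls and 5.69 to 6.57 (median 6.13) at 0.05%, a change of -1.02 ± 0.26, with -0.81 and -0.67 on its other probe sets.

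Errfi1, a feedback inhibitor of the EGF receptor, measured 13.03 to 13.20 (median 13.10) in controls and 11.81 to 12.86 (median 12.70) at 0.05%. Its groups did not overlap, and the change was -0.54 ± 0.14. Thegl (-0.50), the nuclear receptor Rorb (-0.59), Osgin2, an oxidative stress-induced growth inhibitor family member (-0.56, or -0.37 without control arrays 4 and 5), and Fbxw4, an F-box protein (-0.29), also had groups that did not overlap. The other leading lower genes did overlap. They were Mon1b, a factor of endosome maturation (-0.44), Lonrf1, a ring finger protein (-0.63), Cybrd1, an iron-reducing cytochrome (-0.55), Trim62, a ubiquitin ligase (-0.56), and Vhl, the ligase subunit that marks HIF factors for degradation (-0.41), besides Cish and Per1, which are described with their groups. In this set of 15, likewise chosen by p, groups did not overlap for 5 genes, beside 22 of all 12885 tested genes (0.171%).

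Probe sets and the offset bore on several of these values. Averaging all probe sets of a gene gave 0.08 for Bcl7a, -0.08 for Mon1b, 0.27 for Tead1, 0.40 for Tbx3, 0.43 for Jag2, 0.47 for Ppara, -0.18 for Trim62, -0.23 for Thegl, -0.32 for Osgin2 and -0.57 for Resf1. Other probe sets above the level filter gave 0.27 for Ocln, 0.245 to 0.458 for Timp3 and -0.11 for Vhl. Single probe sets are given only where they lay above that filter, while the averages took in all of them. Adding 1 in place of 16 before the log2 made the changes of dim genes larger, to 1.68 for 9930012K11Rik, 1.61 for Jag2, 0.58 for Magef1, -1.52 for Rorb, -1.28 for Cybrd1 and -1.05 for Trim62.

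**Figure D2:**
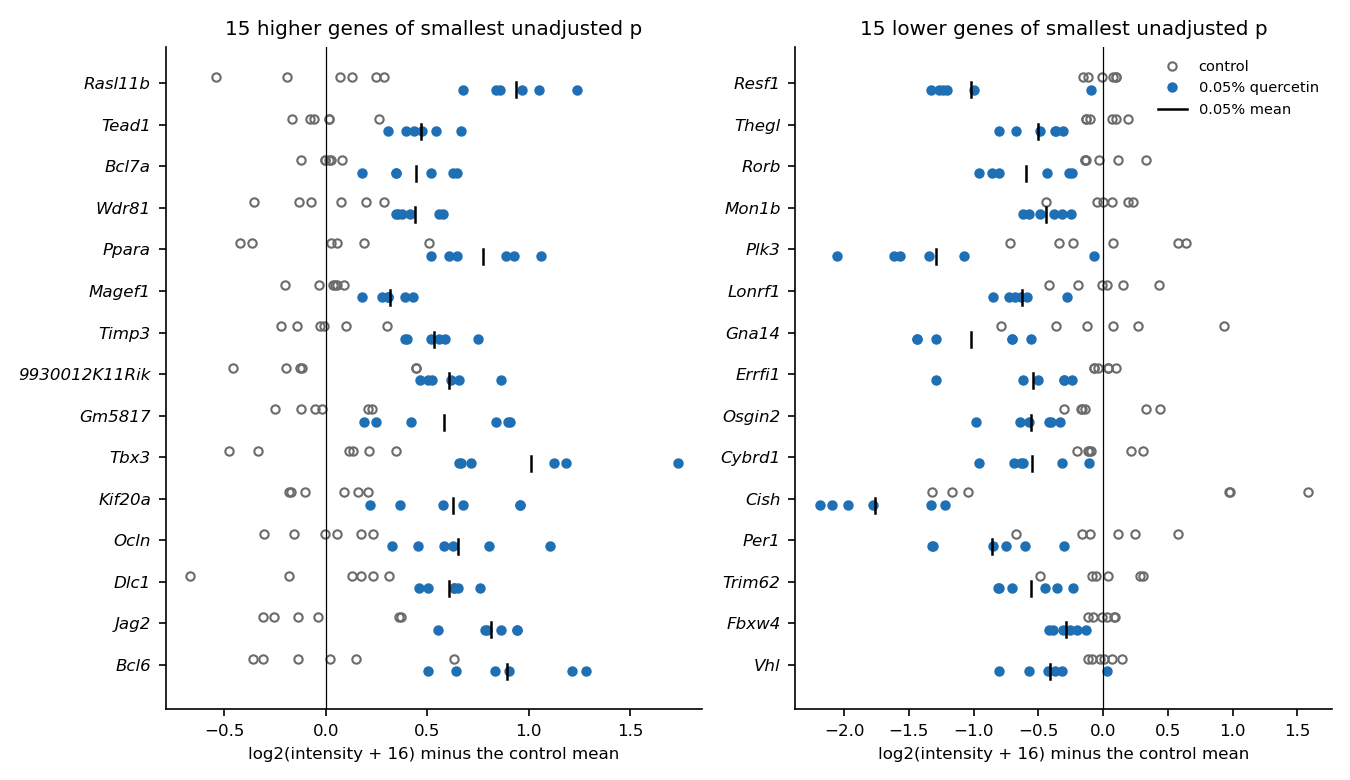
Rows are the 15 higher (left) and 15 lower (right) genes of smallest unadjusted p, and points are log2(intensity + 16) on each of 6 control arrays (open) and 6 arrays of 0.05% quercetin (filled) minus the gene's control mean, with a tick at the 0.05% mean. Treated and control points separate for 13 of the 15 higher genes and 5 of the 15 lower ones, and 1 filled point of Resf1 sits among its controls.

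Genes of the growth hormone pathway lay on both sides of control. Cish, the STAT5-induced inhibitor of cytokine receptors, measured 7.04, 6.89, 7.17, 9.18, 9.19 and 9.79 on control arrays 1 to 6 and 6.02, 6.24, 6.12, 6.99, 6.88 and 6.43 on the treated arrays. Control arrays 4 to 6 were high, the treated arrays were even and low, and only treated array 4 exceeded the lowest control. The change was -1.76 ± 0.47 (adjusted p = 0.668), and -1.27 without control arrays 4 and 5. Onecut1 (HNF6), a liver factor, measured 5.71 to 8.73 (median 7.83) in controls and 4.86 to 6.62 (median 5.77) at 0.05%, a change of -1.66 ± 0.48, or -1.16 without those arrays. Here too the control arrays split widely. Bcl6 was higher by 0.90, or 0.73 without them. The list of growth hormone and STAT5 genes had 6 of 13 tested members higher and a median change of -0.02, beside 5939 of 12885 higher and a median of -0.01 over all tested genes. Ghr, the growth hormone receptor, was at -0.17 ± 0.09 and Igf1, its main secreted product, at -0.02 ± 0.08.

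Sex-biased transcripts, which growth hormone patterns govern, leaned one way. Of 10 tested female-biased genes, 9 were higher at 0.05%, beside 46.1% of all tested genes, with a median change of 0.29. Of 14 male-biased genes, 12 were lower, beside 6946 of 12885 tested genes, with a median of -0.22. The spread behind these medians was wide. The mean of the female-biased list ran from -0.80 to 1.03 over control arrays and from -0.61 to 1.01 over treated arrays. That of the male-biased list ran from -0.93 to 0.61 and from -1.19 to 0.53, so the ranges overlapped over most of their length in both lists. Acot3, a peroxisomal thioesterase, measured 4.21 to 8.85 (median 5.75) in controls and 5.10 to 9.51 (median 8.20) at 0.05%, a change of 1.51 ± 0.72, or 0.94 without control arrays 4 and 5. Fmo2, a flavin monooxygenase, was the one female-biased gene with groups apart, as were 0.217% of all tested genes in the higher direction. It measured 5.61 to 6.03 in controls and 6.11 to 6.45 at 0.05% (0.36 ± 0.15). Moxd1, a monooxygenase relative, covered nearly the whole scale in both groups, 4.09 to 11.51 in controls and 3.83 to 10.73 at 0.05%. Treated arrays 2 and 3 measured 10.73 and 10.14 and the other 4 between 3.83 and 4.39. The change was -2.89 ± 1.45, or -1.72 without control arrays 4 and 5. Leaving out 1 array moved the female-biased median between 0.17 (without treated array 5) and 0.44 (without control array 3). The male-biased median moved between -0.07 and -0.35 without the same arrays. No female-biased member and no male-biased member passed the test.

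PPARA targets and genes of fatty acid oxidation were higher more often than not: 33 of 39 tested members, beside 46.1% of all tested genes, with a median change of 0.13. Of the 39, 4 were higher at an unadjusted p under 0.05, as were 2.65% of all tested genes, and 0 passed over all genes. Ppara itself was 1 of the 4. The others were acyl-CoA thioesterases, Acot2 at 0.85 ± 0.30, Acot1 at 1.04 ± 0.40 and Acot3 at 1.51 ± 0.72, which PPARA agonists induce. Another probe set of Acot2 gave 0.10, and Acot1 and Acot2 are close paralogs, so their signals are uncertain where probes match both. Cyp4a14, a fatty acid omega-hydroxylase, measured 8.37 to 12.44 (median 9.70) in controls and 8.20 to 12.54 (median 12.14) at 0.05%, a change of 1.29 ± 0.70, or 2.13 without control arrays 4 and 5 and treated arrays 2 and 3. Both groups contained low and high arrays: 4 treated arrays and control array 3 were above 12, and treated array 2 was the lowest of all 12. Cpt1a, the gate of mitochondrial fatty acid entry, was at 0.12 ± 0.12. The mean of the list ran from -0.38 to 0.48 over control arrays (median -0.25) and from -0.40 to 0.47 over treated arrays (median 0.27), so the ranges overlapped over most of their length. Leaving out 1 array moved the median change of the list between 0.10 and 0.21, the latter without control array 3.

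Heat shock chaperones, which fold proteins under stress and which HSF1 induces, were lower in 20 of 21 tested members, beside 6946 of 12885 tested genes, with a median change of -0.25. The promoters of this list are shown because its members share a known response element. The core of the heat shock element, GAANNTTC on either strand, stood within 250 bases before the start in 7 of 18 members with a RefSeq promoter (38.9%), beside 667 of 10378 tested genes (6.4%). Among the 7, Hspd1 and Hspe1 are divergent neighbours on 1 shared stretch and Hspa1a and Hspa1b are near-identical copies, so the promoters are not independent. A match is a description of letters and not a sign of binding. The stretches of Hspe1, the mitochondrial co-chaperonin (chr1:55087898-55088147, plus strand), and Dnaja1, a J-domain co-chaperone (chr4:40722218-40722467, plus strand), are printed up to the start site from RefSeq on GRCm38.p6, with the motif in capitals.
Hspe1: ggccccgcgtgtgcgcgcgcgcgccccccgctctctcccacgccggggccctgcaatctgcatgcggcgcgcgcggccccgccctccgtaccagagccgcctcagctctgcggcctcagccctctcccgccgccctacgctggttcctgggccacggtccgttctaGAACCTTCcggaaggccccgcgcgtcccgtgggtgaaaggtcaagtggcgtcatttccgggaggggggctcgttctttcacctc
Dnaja1: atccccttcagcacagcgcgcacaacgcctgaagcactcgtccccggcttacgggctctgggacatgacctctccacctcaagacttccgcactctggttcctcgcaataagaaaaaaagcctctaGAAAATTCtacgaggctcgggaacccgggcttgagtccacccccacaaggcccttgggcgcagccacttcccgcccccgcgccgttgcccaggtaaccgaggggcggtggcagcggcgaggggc
The motif began 84 bases before the start of Hspe1 and 124 before that of Dnaja1.

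The mean level of the chaperones had an SD of 0.26 over control arrays and 0.50 over treated arrays. Hspe1 measured 11.81 to 11.97 (median 11.87) in controls and 11.57 to 11.91 (median 11.71) at 0.05%, a change of -0.15 ± 0.09. Dnaja1 measured 11.74 to 12.29 (median 11.96) and 11.16 to 12.24 (median 11.57), a change of -0.31 ± 0.23. Stip1, the adaptor between HSP70 and HSP90, was the one lower member at an unadjusted p under 0.05, from 8.78 to 9.12 in controls and from 8.16 to 9.10 at 0.05% (-0.34 ± 0.15). Hsph1, an HSP70 exchange factor (-0.61 ± 0.34, or -0.39 without treated array 5 and -1.01 without control arrays 4 and 5 and treated arrays 2 and 3), Hspa8, the constitutive HSP70 (-0.40 ± 0.23), and Chordc1, an HSP90 partner (-0.38 ± 0.20), overlapped between groups. The other Hspa8 probe sets ran from -0.31 to 0.155. Hsf2, a heat shock transcription factor, was the single higher member, 5.46 to 6.30 (median 5.74) in controls against 5.93 to 6.80 (median 6.34) at 0.05% (0.55 ± 0.19). The mean of the list was -0.62, -0.58 and -0.46 on treated arrays 4 to 6 but 0.40 and 0.51 on treated arrays 1 and 3, and between -0.11 and 0.48 in controls. Low values were thus found on treated arrays 4 to 6 and not on arrays 1 and 3. Leaving out 1 array at a time, the list's median change lay between -0.38 (without treated array 3) and -0.13 (without treated array 5), and it was -0.46 without control arrays 4 and 5 and treated arrays 2 and 3.

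Immediate early and stress genes were lower in 25 of 35 tested members, with a median change of -0.13, of which 4 were lower and 1 higher at an unadjusted p under 0.05. Over all tested genes, 6946 of 12885 were lower, and 2.44% were lower and 2.65% higher at such a p. The median of the list lay between -0.19 and -0.05 with 1 array left out, the latter without control array 1. Besides Plk3, the lower members were Ccn2, a matricellular YAP target (-0.64 ± 0.27, or -0.99 without control arrays 4 and 5), Trib1, a pseudokinase (-0.40 ± 0.18, or -0.20 without control arrays 4 and 5 and treated arrays 2 and 3), and Btg2, an antiproliferative gene of the p53 response (-0.60 ± 0.28). The higher member was Gadd45b, a stress sensor, with 5 treated arrays between 6.37 and 7.01 and array 4 at 4.52, against 4.58 to 6.22 in controls (1.00 ± 0.45). The other Gadd45b probe sets gave 0.13 and 0.66. The clock list had 10 of 20 members higher and a median of -0.01, with Rorb, Per1 and Nr1d1 at an unadjusted p under 0.05. Per1, a repressor of the clock and also a glucocorticoid target, measured 5.91 to 7.16 (median 6.59) in controls and 5.26 to 6.28 (median 5.78) at 0.05%, a change of -0.86 ± 0.23. Nr1d1 (REV-ERB alpha), a repressor of Arntl, measured 4.29 to 5.64 (median 4.94) and 5.46 to 6.80 (median 6.09), a change of 1.08 ± 0.34. Treated arrays were mostly low for Per1 and high for Nr1d1. Per2, a relative of Per1, was at -0.65 ± 0.35, Dbp, a rhythmic output factor, at 0.01 ± 0.74 and Arntl, which encodes BMAL1, at 0.20 ± 0.24. The other Per2 probe sets gave -0.30 and -0.14. Noct, a deadenylase with daily rhythm picked after its values were seen, was at -1.22 ± 0.46.

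The promoters of Btg2 and Per1 are printed because they hold the elements searched for in those lists. The cAMP response element TGACGTCA stood within 250 bases before the start in 5 of 29 immediate early genes with a promoter (17.2%), beside 293 of 10378 tested genes (2.8%). The E-box CACGTG, the letters that CLOCK and BMAL1 bind, stood in 3 of 17 clock genes (17.6%), beside 1016 of 10378 (9.8%). Both are palindromes, so either strand reads alike, and neither contains the other. Btg2 lies at chr1:134079156-134079405 on the minus strand and Per1 at chr11:69098699-69098948 on the plus strand (GRCm38.p6, RefSeq), each read along its gene with the motif in capitals.
Btg2: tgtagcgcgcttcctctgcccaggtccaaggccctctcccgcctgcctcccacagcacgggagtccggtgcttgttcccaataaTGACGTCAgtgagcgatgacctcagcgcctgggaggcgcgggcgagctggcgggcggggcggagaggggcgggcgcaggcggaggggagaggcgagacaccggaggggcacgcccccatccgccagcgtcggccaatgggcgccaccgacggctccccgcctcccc
Per1: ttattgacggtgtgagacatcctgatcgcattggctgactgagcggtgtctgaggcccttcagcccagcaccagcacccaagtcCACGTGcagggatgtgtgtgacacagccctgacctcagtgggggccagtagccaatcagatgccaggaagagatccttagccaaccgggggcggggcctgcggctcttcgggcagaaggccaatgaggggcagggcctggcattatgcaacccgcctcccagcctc
In both genes the motif began 166 bases before the start. Btg2 measured 7.17 to 8.59 (median 7.75) in controls and 6.57 to 8.30 (median 7.13) at 0.05%, so its groups overlapped.

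Glucocorticoid-responsive genes were lower in 16 of 24 members, with a median change of -0.12 and 5 lower against 1 higher at an unadjusted p under 0.05. Over all tested genes, 6946 of 12885 were lower, and 2.44% were lower and 2.65% higher at such a p. With 1 array left out the median of the list lay between -0.20 (without control array 1) and -0.07 (without control array 6). Errfi1 and Per1 led, followed by Cebpd, a C/EBP factor of the acute phase, at -0.70 ± 0.25 (6.58 to 8.07 in controls, 6.34 to 6.80 at 0.05%) and Cebpb, its relative, at -0.48 ± 0.20. Without control arrays 4 and 5 these were -0.40 and -0.27. A second Cebpd probe set gave -0.35. Igfbp1, an insulin-repressed binding protein, was at -0.86 ± 0.40. Established targets such as Fkbp5 (-0.11) and Tsc22d3 (-0.35) did not reach an unadjusted p of 0.05.

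Fatty acid synthesis genes were lower in 15 of 21 members with a median of -0.07 and 0 members at an unadjusted p under 0.05. That median ran from -0.22 (without control array 4) to 0.01 (without treated array 3), so its sign was not stable. Fasn, fatty acid synthase, measured 9.72 to 12.65 (median 11.44) in controls and 9.35 to 11.73 (median 11.25) at 0.05%, a change of -0.38 ± 0.46, and Srebf1, its main activator, was at -0.05 ± 0.52. Control arrays 4 to 6 were low for Fasn, from 9.72 to 10.82, and controls 1 to 3 high, from 12.05 to 12.65. The change of Fasn was -0.07 without treated array 3, -0.70 without control array 4 and -1.02 without control arrays 4 and 5, but -0.45 when treated arrays 2 and 3 were left out too. Thrsp, a lipogenic cofactor, was at -0.58 ± 0.44, with -0.34 without control array 2 and -1.07 without control arrays 4 and 5. The other Thrsp probe sets gave -0.72 and 0.10. Scd1, the stearoyl-CoA desaturase, was at -0.07 ± 0.09. Cholesterol synthesis genes were lower in 17 of 19 members, beside 6946 of 12885 tested genes, with a median of -0.17. Yet Sqle, squalene epoxidase, was the only one at an unadjusted p under 0.05 (8.39 to 8.88 in controls, 6.71 to 8.82 at 0.05%, -0.81 ± 0.36). The median of the list lay between -0.29 (without treated array 6) and -0.05 (without treated array 3). The mean of that list was high on treated arrays 4 and 6 (0.35 and 0.47) and low on array 3 (-0.70). Without control arrays 4 and 5 and treated arrays 2 and 3 its median change was -0.01.

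Single enzymes of lipid, glucose and heme metabolism differed within lists whose medians lay near zero. Lpin1, the phosphatidate phosphatase and coactivator, measured 9.26 to 10.79 (median 10.45) in controls and 8.54 to 9.89 (median 9.12) at 0.05%, a change of -1.06 ± 0.34, with -0.97 on its other probe set. Its list of triglyceride genes had 11 of 24 members higher and a median of -0.03. Ppp1r3c, which targets a phosphatase to glycogen, measured 11.23, 9.62, 11.04, 8.27, 9.04 and 9.17 on control arrays 1 to 6 and 10.88 to 11.46 (median 11.25) at 0.05%. All treated arrays were high, as were control arrays 1 and 3, and the change was 1.52 ± 0.43, or 0.98 without control arrays 4 and 5. The glycogen and glucose list otherwise had a median of -0.03, with Pfkfb3, a glycolytic regulator, at -0.73 ± 0.30 or -0.47 without control array 5. Alas1, the rate-limiting enzyme of heme synthesis, measured 9.96 to 11.82 (median 11.44) in controls and 8.98 to 11.35 (median 9.91) at 0.05%. Treated arrays 4 to 6 lay at 8.98 to 9.18, below every control, while arrays 1 to 3 did not, and the change was -1.14 ± 0.39 with -1.23 on another probe set. Id1 (0.97 ± 0.31) and Smad7 (0.56 ± 0.21), targets of BMP and TGF-beta signals, were higher. Hsd17b6, a steroid dehydrogenase picked after its values were seen, had the widest higher change of all tested genes, 1.58 ± 0.44.

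NRF2 targets were higher in 22 of 31 members, beside 46.1% of all tested genes, with a median change of 0.16. Of the 31, 1 was higher at an unadjusted p under 0.05, as were 2.65% of all tested genes. Leaving out 1 array moved the median between 0.11 (without control array 4 or 5) and 0.28 (without control array 3). That member was Gsta2, a glutathione transferase, 9.06 to 10.57 (median 9.54) in controls and 9.50 to 11.37 (median 10.65) at 0.05% (0.77 ± 0.33). Gclc, a subunit of the enzyme that starts glutathione synthesis (0.49 ± 0.37), Nqo1, a quinone reductase (0.23 ± 0.16), and Osgin1, a stress-induced growth inhibitor (0.41 ± 0.31), overlapped between groups, and Hmox1, heme oxygenase, was at -0.02 ± 0.46. Without control arrays 4 and 5 and treated arrays 2 and 3, Nqo1 was at 0.44 and Osgin1 at 0.20. The wider list of glutathione transferases and peroxidases had 12 of 24 higher and a median of 0.02, with Gstt2 at 0.65 ± 0.25, or 0.43 without control arrays 4 and 5. The xenobiotic P450 enzymes did not reach an unadjusted p of 0.05: Cyp1a1 at -0.11 ± 0.16, Cyp1a2 at 0.08 ± 0.16, Cyp2b10 at 0.26 ± 0.32 and Cyp3a11 at 0.02 ± 0.09, the last of which turned to -0.004 after a shift to the median of all probe sets. Cyp2b10 reached the level filter only through its 0.05% arrays, with a mean of 4.685 over control and 1% arrays. Without control array 3 its change was 0.58. Cyp7a1, which starts the classic route from cholesterol to bile acids, measured -0.29 ± 0.38 as a change. For Pck1, a gluconeogenic enzyme, the change was -0.14 ± 0.33.

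Developmental regulators were spread over several pathways. Among Wnt-dependent genes around the central vein, a list added after these values were seen, 14 of 21 were higher with a median of 0.04. The 3 at an unadjusted p under 0.05 were Tbx3, Axin2 (5.66 to 6.36 in controls, 6.25 to 6.94 at 0.05%, 0.55 ± 0.15) and Sp5 (0.68 ± 0.20, or 1.30 with 1 added in place of 16 before the log2), direct targets of beta-catenin. Metabolic and receptor genes of that zone lay near zero, with Glul at 0.05 ± 0.08, Cyp2e1 at -0.07 ± 0.09 and Lgr5 at 0.01 ± 0.17. Among Notch genes, also a list added after the values were seen, 9 of 16 were higher with a median of 0.03. Besides Jag2, these included Hes1, a Notch target (6.42 to 7.31 in controls, 7.0 to 8.10 at 0.05%, 0.81 ± 0.22), the receptor Notch1 (0.26 ± 0.10, or 0.15 without control arrays 4 and 5) and the ligand Dll1 (0.37 ± 0.15, or 0.15 without control arrays 4 and 5). Nuclear receptors had 16 of 23 higher and a median of 0.04, led by Ppara and the orphan receptors Nr2f1 (0.30 ± 0.09) and Nr2f2 (0.42 ± 0.16, or 0.23 without those arrays). The other Nr2f2 probe sets ran from 0.16 to 0.45. Mitotic genes were higher in 19 of 26 members, beside 46.1% of all tested genes, with a median of 0.18. Kif20a (4.28 to 4.67 against 4.68 to 5.42), Ccna2, cyclin A2 (0.49 ± 0.20), and Prc1, a spindle midzone protein (0.41 ± 0.17), were higher at an unadjusted p under 0.05, as were 2.65% of all tested genes. A second Prc1 probe set gave 0.15. Kif20a was tested only through its 0.05% arrays, and without it 18 of 25 members were higher with a median of 0.16. The median of the 26 lay, with 1 array left out, between 0.10 (without treated array 4) and 0.26.

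**Figure D3:**
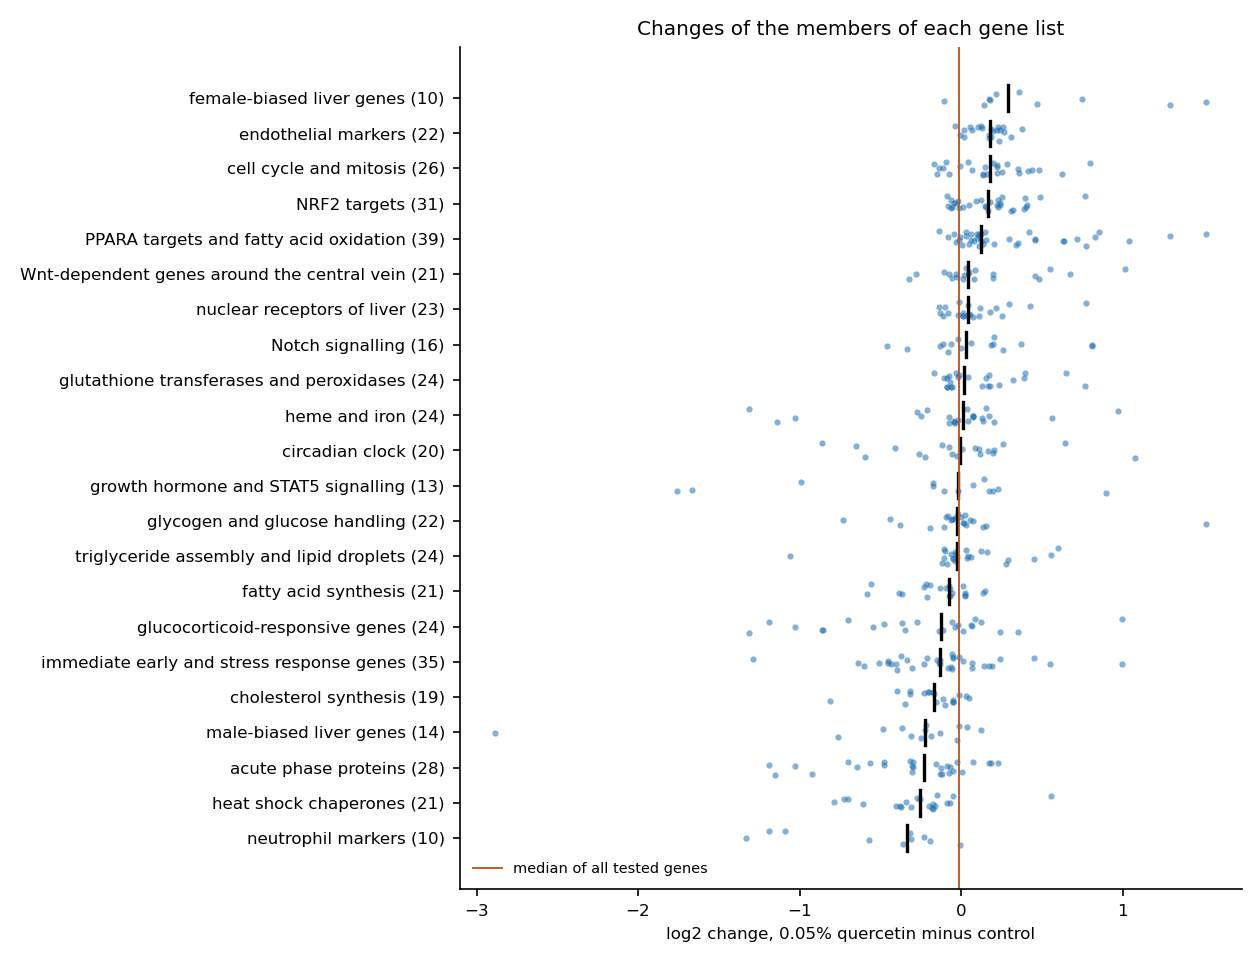
Points are the log2 changes (0.05% quercetin minus control) of the tested members of 22 gene lists, with the number of members in brackets, bars mark the list medians and the vertical line the median of all tested genes (-0.01). Medians run from -0.34 for neutrophil markers to 0.29 for female-biased genes, and most members of every list lie within 1 of zero.

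No marker of another cell type passed the test. In bulk tissue, fewer cells of a type and less RNA per cell cannot be told apart. All 10 tested neutrophil markers were lower, beside 6946 of 12885 tested genes, with a median change of -0.34. Their summed intensity ran from 296 to 7069 over control arrays and from 210 to 5951 over treated arrays. S100a8, a calcium-binding protein of neutrophils, measured 5.50 to 9.44 (median 6.84) in controls and 5.08 to 6.75 (median 6.04) at 0.05%, a change of -1.33 ± 0.59. Control arrays 4 and 5 at 9.44 and 9.17 were the highest, and the change without them was -0.32. The median of the list was then -0.07, and -0.24 when treated arrays 2 and 3 were left out too. Il1b, an inflammatory cytokine, was at -0.57 ± 0.18 (5.95 to 7.24 in controls, 5.79 to 6.62 at 0.05%). Acute phase proteins were lower in 23 of 28 members with a median of -0.23, which turned to 0.09 without control arrays 4 and 5 and was -0.28 when treated arrays 2 and 3 were left out too. Cebpb and Cebpd were its 2 members at an unadjusted p under 0.05, while Saa2, serum amyloid A, was at -1.03 ± 1.16. Lcn2 belongs to both lists.

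Endothelial markers were higher in 20 of 22 members, beside 46.1% of all tested genes, with a median change of 0.18. Of the 22, 7 were higher at an unadjusted p under 0.05, as were 2.65% of all tested genes. Vwf, von Willebrand factor, measured 5.38 to 5.58 (median 5.45) in controls and 5.50 to 6.25 (median 5.74) at 0.05%, a change of 0.31 ± 0.11. Mmrn2, an endothelial matrix protein (0.38 ± 0.14), Cdh5, VE-cadherin (0.27 ± 0.10), and Kdr, the VEGF receptor (0.23 ± 0.09), followed. The other Mmrn2 probe sets ran from 0.17 to 0.36. The summed intensity of the list was 4094 to 4876 in controls and 4770 to 5552 at 0.05%, so the groups overlapped at the margin. Averaging the probe sets of each gene brought the median change to 0.08 and that of Cdh5 to 0.01. Hepatocyte markers were all slightly lower, 15 of 15 with a median of -0.08 and none beyond -0.28. Kupffer cell markers had 7 of 17 higher and a median of -0.005, stellate and matrix markers 11 of 18 and 0.045, and bile duct markers 3 of 6 and 0.00. The part of cell makeup in the other changes was not tested.

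**Figure D4:**
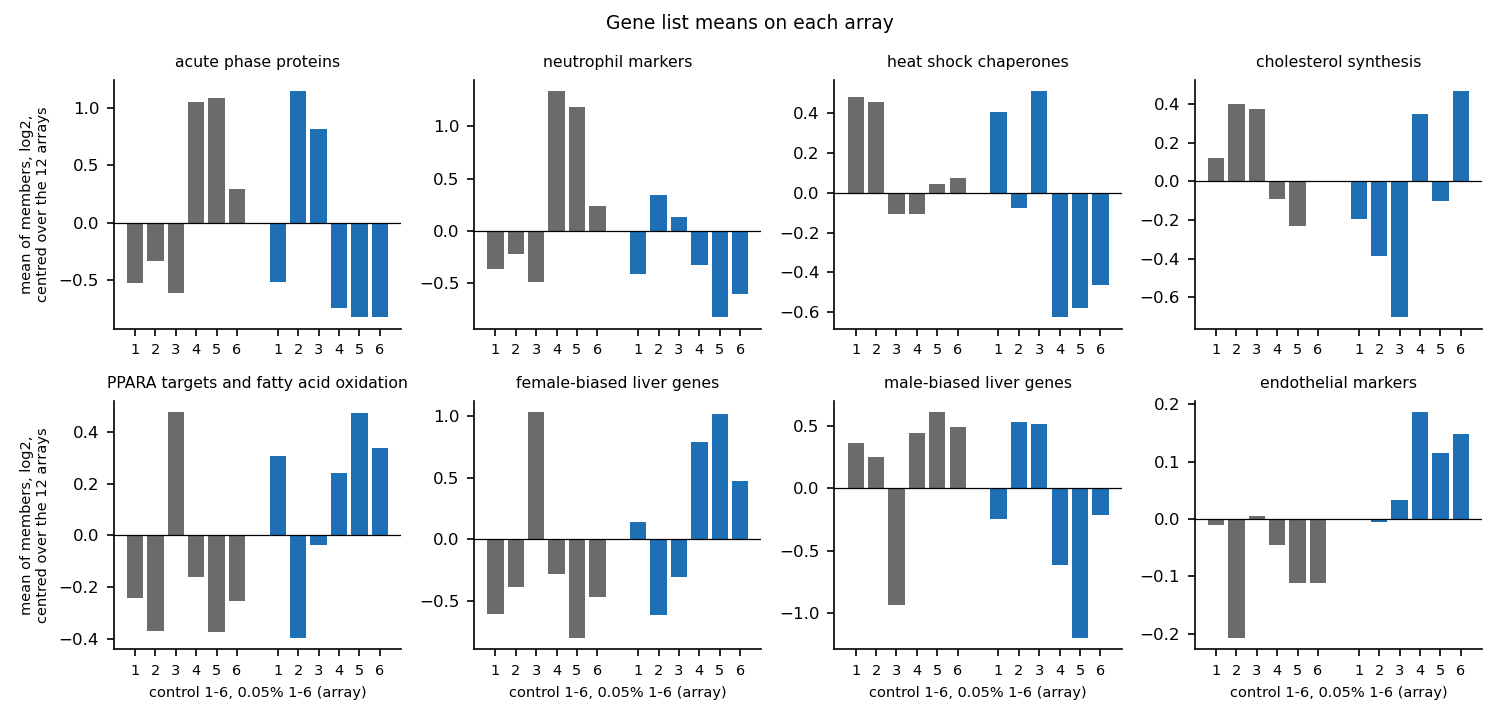
Bars give the mean of a list's members on each array (log2, centred over the 12 arrays), control arrays 1 to 6 in grey and 0.05% quercetin arrays 1 to 6 in blue. Acute phase means are high on control arrays 4 and 5 and treated arrays 2 and 3, chaperone means are low on treated arrays 4 to 6, and control array 3 differs from its group in PPARA targets and sex-biased genes.

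The 1% diet, against the same 6 control arrays, gave other values for several of these genes, and the shared controls make the 2 sets of changes dependent. Most of the genes were also chosen by p at 0.05%, and the contrast between doses uses those same 0.05% arrays. A value nearer control at 1% can thus follow from that choice. The direct contrast of 1% with 0.05% called 0 of 12885 genes, with 1098 at an unadjusted p under 0.05. Its smallest adjusted p was 0.0885, for Bcl6 and Resf1. Bcl6 was 0.90 above control at 0.05% and -0.52 from it at 1%, a difference between doses of -1.42 ± 0.24. Resf1 was at -1.02 and 0.19, a difference of 1.21 ± 0.21. Nr2f2 was at 0.42 and -0.43 (difference -0.85 ± 0.16, adjusted p = 0.179). Cish was at -1.76 and 0.22, Onecut1 at -1.66 and 0.51 and Ppara at 0.78 and 0.01, each with an adjusted p of 0.297 for the difference. Alas1 was at -1.14 and 0.33, Plk3 at -1.29 and -0.12 and Dlc1 at 0.61 and -0.01.

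Other genes lay on the same side of control at both doses. Tead1 was at 0.47 and 0.61, and the latter passed against control (adjusted p = 0.0225), the only gene called at 1%. Gna14 was at -1.02 and -1.44, Lpin1 at -1.06 and -1.37, Per1 at -0.86 and -0.67 and Acot3 at 1.51 and 1.32. The difference between doses was 0.14 ± 0.09 for Tead1, -0.42 ± 0.26 for Gna14 and 0.19 ± 0.23 for Per1, none of which passed. Fasn was at -0.38 and -1.37 and Thrsp at -0.58 and -1.69, and neither difference passed (adjusted p = 0.576 and 0.528). The median change of PPARA targets was 0.13 at 0.05% and 0.22 at 1%, that of NRF2 targets 0.16 and 0.31, that of fatty acid synthesis -0.07 and -0.50, and that of endothelial markers 0.18 and 0.05.

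**Figure D5:**
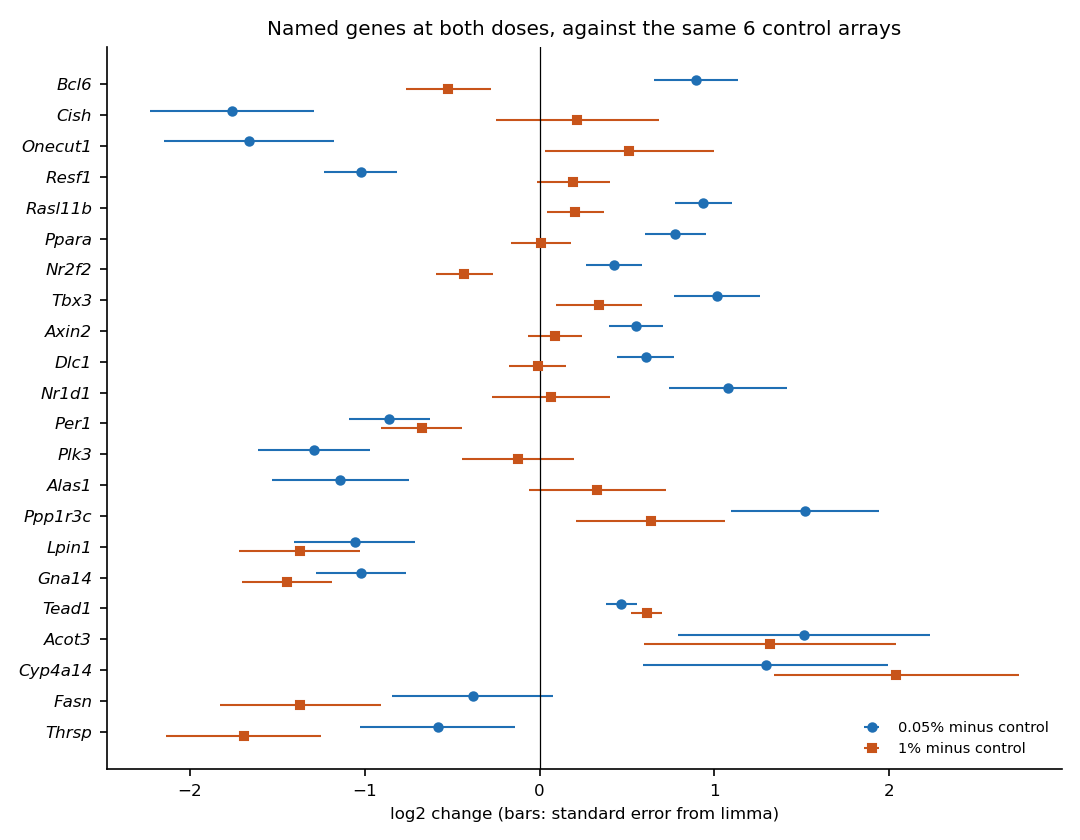
Log2 changes against the same 6 control arrays are shown for 22 named genes at 0.05% quercetin (circles) and 1% quercetin (squares), with bars for limma's SE. Bcl6, Cish, Onecut1, Resf1, Nr2f2, Alas1 and Dlc1 take opposite signs at the 2 doses, and none of these passed against control at either dose. At 1%, Resf1 (0.19 ± 0.21), Cish (0.22 ± 0.47), Alas1 (0.33 ± 0.39) and Dlc1 (-0.01 ± 0.16) lie within their SE of control. Per1, Lpin1, Gna14, Tead1, Acot3 and Cyp4a14 are among those on the same side.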

How the data were processed

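The deposited table of the authors holds linear intensity values, 1 signal per probe set and array. The software and scaling behind these intensities were not given in the sources used here. Of 45101 probe sets, 34945 had exactly 1 gene symbol, 932 several, 9160 none and 64 were controls. Entrez numbers of 34741 probe sets matched RefSeq on GRCm38.p6, which changed 0 symbols. Values were log2-transformed after adding 16. For each gene, the probe set of highest mean over all 18 arrays was kept, among those naming 1 gene. Genes with a mean above the 40th percentile of probe sets (4.69) were tested, and arrays were shifted to a common median of these 12885 genes.

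limma 3.58.1 (R 4.3.3; lmFit and eBayes, 15 residual and 3.81 prior degrees of freedom) was fitted to 3 group means over all 18 arrays, two-sided, with Benjamini-Hochberg adjustment. It was tested on simulated data. The number of arrays limits the precision, and p-values measure the spread between these mice. Named genes were the 15 higher and 15 lower of smallest p, up to 4 members of smallest p in each of 22 described lists and 21 preset genes, of which 20 were tested and 1 was not analysed here. Other genes were named after their values were seen, as examples within lists or for their size. The comparison, the 45 gene lists and the rule were chosen with earlier results of these data known, and 2 lists were added later. Lists are described by counts and medians without a test. Alternatives covered scaling, offset, filter, probe sets, model and each array left out. Those that leave out arrays 4 and 5 of the controls together, or these with 0.05% arrays 2 and 3, or that use the acute phase mean as a covariate, were added after seeing the data.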

Additional observations from a re-analysis of the deposited data

Results flagged for a closer look

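Among 282 groups of 6 arrays checked, 17 held 1 array whose gap to the nearest other was large for the group's range, and chance gives about 1 in 20. Control array 3 accounted for 9 of them. Its mean of PPARA targets was 0.48 with the other controls between -0.38 and -0.16, its mean of triglyceride genes 0.41 (others -0.13 to -0.09), its female-biased mean 1.03 (others -0.80 to -0.28) and its male-biased mean -0.93 (others 0.25 to 0.61). On the same array Cidec, a lipid droplet protein, was at 6.54 (others 4.48 to 4.84), Cyp2b10 at 6.25 (others 4.09 to 4.82), Ugt2b38 at 6.64 (others 9.24 to 10.23), Nudt7, a peroxisomal hydrolase, at 12.21 (others 12.97 to 13.12) and Il1b at 5.95 (others 6.92 to 7.24). In other controls, Sp5 was at 4.08 on array 6 (others 4.59 to 4.88) and Chordc1 at 10.29 on array 1 (others 9.85 to 10.01). In the 0.05% group, Resf1 was at 7.90 on array 1 (others 6.67 to 7.0), Slc22a26, an organic anion transporter, at 4.38 on array 1 (others 4.72 to 4.88), Acot1 at 7.38 on array 2 (others 8.84 to 9.54), the clock mean at -0.26 on array 2 (others -0.02 to 0.09), Errfi1 at 11.81 on array 4 (others 12.48 to 12.86) and Gadd45b at 4.52 on array 4 (others 6.37 to 7.01).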

How the results depend on the processing

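Resf1 passed without 0.05% replicate 1, and no gene had an adjusted p under 0.05 in any other setting, so leaving out single arrays gave 0 to 1 called genes. At a threshold of 0.10 the count in the reported fit was 0. Adjusted p fell between 0.05 and 0.10 for Rasl11b and Tead1 (0.0621 each) and Bcl7a (0.0821) with the filter at the 60th percentile, and for Rasl11b, Tead1 and Il1b (0.0815 each) without control replicate 3. The count at an unadjusted p under 0.05 was 184 higher on values as deposited and 215 after a shift to the median of all probe sets, and 159 lower with the filter at the 60th percentile, against 342 and 314. Leaving out single arrays gave 272 to 524 higher genes, the most without control replicate 3. Genes whose groups did not overlap numbered 13 on values as deposited, 25 after the shift over all probe sets, 64 to 127 with 1 array left out, 149 without control arrays 4 and 5 and 546 when treated arrays 2 and 3 were left out too, against 50, and fewer arrays overlap less by construction. Replicate number as a block left 0 genes called, with 345 higher and 285 lower at an unadjusted p under 0.05. The reported fit also called 0, so an unchanged count says nothing about pairing. Residuals of same-numbered arrays correlated from -0.47 to 0.33. Whether equal numbers mark paired mice or a shared batch is not stated in the labels and was not tested.

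The neutrophil median was -1.111 over 4 members and the Notch median 0.153 over 10 with the filter at the 60th percentile, where fewer genes are tested, and the endothelial median was 0.077 with mean probe sets. List medians near zero (clock, triglyceride, glycogen, glutathione, heme, growth hormone and Wnt genes) took both signs when single arrays were left out, as did fatty acid synthesis. Signs turned for some genes. Cyp3a11 was at -0.004 after the shift over all probe sets, 0 with the acute phase covariate, -0.075 without control arrays 4 and 5, -0.079 without those and treated arrays 2 and 3, and -0.047 to 0.061 with single arrays left out. Hmox1 was at 0.012 with the 60th percentile filter, 0.072 with the covariate, 0.092 without control arrays 4 and 5, and -0.125 to 0.082 with single arrays left out. Srebf1 was at 0 with array weights and -0.345 to 0.321 with single arrays left out. Uros (0.084), Cpt1a (-0.002) and Scd1 (0.008) turned with mean probe sets, Cyp1a1 (0.051) and Pck1 (0.026) without control arrays 4 and 5, and Cyp1a2 (-0.092) and Ppp1r3g (0.07) when treated arrays 2 and 3 were left out too. Cyp1a2 ran from -0.019 to 0.17 with single arrays left out. The cause was not tested. As limits, signals near background have compressed changes and give no absolute amounts, and cage and batch are not stated in the labels.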

Other observations

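Some secreted and housekeeping programs of the liver had small negative medians. Complement and coagulation genes were lower in 29 of 31 members with a median log2 change of -0.11, oxidative phosphorylation genes lower in 45 of 53 members with a median log2 change of -0.04 and genes of the unfolded protein response lower in 25 of 29 members with a median log2 change of -0.15, beside 6946 lower of 12885 and -0.01 over all tested genes. Of these, 1 member of oxidative phosphorylation, Ndufs8, reached an unadjusted p under 0.05, and no member passed.

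Genes of wide change were named after their values were seen. Tff3, a trefoil peptide, measured 5.88 to 9.84 (median 9.63) in controls and 4.66 to 9.68 (median 6.26) at 0.05%, a log2 change of -1.87 ± 0.86. Vldlr, the receptor of very low density lipoprotein, measured 4.23 to 7.05 (median 4.46) in controls and 4.86 to 7.04 (median 6.12) at 0.05%, a log2 change of 1.14 ± 0.47. Hsd17b6 measured 7.71 to 10.31 (median 8.55) in controls and 9.43 to 11.13 (median 10.68) at 0.05%, a log2 change of 1.58 ± 0.44. None of the 3 passed the test over all genes.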
